A study of Bos taurus with 18 samples.

Results

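Cows assigned to PHY were set against control cows while all of them were on forage. The comparison took every library labelled with the forage diet, which is 9 of the 18 RNA-seq libraries in the series: 4 from PHY cows (forage_PHY) and 5 from control cows (forage_control). All the cows were non-lactating Holsteins with a rumen cannula, allocated to the arms at random, and the tissue was biopsied papillae of the rumen wall. The other 9 libraries come from the same cows after a change to a high-grain diet and are used here only beside the forage values. The supplement is named only as PHY. The labels do not give its dose, or whether it was already being fed at the forage biopsy, so the forage difference may be one between supplemented and unsupplemented cows or one between 2 sets of cows before supplementation. Each forage library is taken as 1 cow. Nothing else is given about how the samples were kept apart, and the p-values measure the spread between these samples.

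Rumen papillae are folds of a keratinizing stratified squamous epithelium over a core of connective tissue and vessels. The epithelium absorbs the short-chain fatty acids made by rumen microbes, turns part of the butyrate into ketone bodies, and keeps its barrier by dividing in the basal layer and cornifying at the surface. Immediate early genes, such as FOS, JUN and EGR1, encode transcription factors and feedback regulators that a cell transcribes within minutes of a growth factor or stress signal, before any new protein is made, and their messages are short-lived.

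The forage libraries held 15808999 to 33935756 reads on genes in controls and 18655841 to 34471682 in PHY cows. The most abundant gene alone took 25.3 to 43.8% of these reads in controls and 23.9 to 36.8% in PHY. The second gene took a further 19.7% in control 3 and 14.1% in PHY 1. The depth left for all other genes was therefore well below these totals, and differed between libraries. The TMM scaling factor was lowest in control 3, at 0.773, and highest in PHY 1, at 1.23. Levels are given as CPM, the usual scaling of read counts to library size, and differences as log2 fold change, PHY minus control, with a standard error (SE). The SE was worked back from the test, as the absolute log2 fold change over the square root of the F statistic. It is therefore approximate. The tissue label matched the epithelial keratins. KRT5, the basal keratin, stood at 3235 ± 322 CPM (SD, n = 5) in controls and 3632 ± 704 (n = 4) in PHY, KRT14 at 2790 ± 1452 and 2889 ± 479.9, and the basal regulator TP63 at 389.8 ± 59.9 and 379.4 ± 24.2. KRT1, KRT4 and KRT10, suprabasal keratins of skin and of other squamous linings, were low, at 0.991, 1.02 and 3.0 CPM in controls. Of 7 measures of the libraries (total reads, genes detected, the share of the most abundant gene, of mitochondrial and of ribosomal protein reads, and the CPM of olfactory receptor genes and of a panel of genes silent in most tissues), none passed an exact two-sided permutation test after adjustment over the 7 (adjusted p from 0.911 to 0.952). The smallest unadjusted p that 4 against 5 libraries allow is 0.0159. After adjustment over the 7, a measure that separated the groups by itself could not have passed. The adjusted test therefore cannot show that the libraries were alike in these measures. Before adjustment the same test gave p from 0.365, for the share of the most abundant gene, to 0.952, for ribosomal protein reads.

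No gene passed the test across all genes. edgeR's quasi-likelihood test called 0 of 17389 genes (0%) at a Benjamini-Hochberg adjusted p under 0.05, and the smallest adjusted p was 0.859. At an unadjusted p under 0.05 it had 220 genes (1.27%), of which 102 were higher in PHY (0.587%) and 118 lower (0.679%). DESeq2, run on the same counts and genes, called 6 (0.0345%), all lower in PHY: FOS, DUSP1, ATF3, JUN, CA1 and ENSBTAG00000048514. The last has no symbol and averaged 0.758 CPM in controls and 0.0498 in PHY. Voom with sample quality weights called 0, with a smallest adjusted p of 0.383. The biological coefficient of variation was 42.5%, and the median SE of a gene was 0.27, against a median log2 fold change of -0.05.

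Of these 6 genes, 4 were immediate early genes. FOS, a subunit of the AP-1 transcription factor, stood at 172.1, 86.4, 62.0, 36.9 and 85.2 CPM in the 5 control libraries and at 13.9, 21.9, 22 and 16.1 CPM in the 4 PHY libraries. The lowest control lay above the highest PHY library. The log2 fold change was -2.26 ± 0.37 (SE), 4.78-fold higher in controls, with an adjusted p of 0.859 by edgeR and 1.07e-06 by DESeq2. JUN, its partner in AP-1, stood at 158, 115, 67.8, 119 and 84.6 CPM in controls and 50.2, 62.6, 51.4 and 46.4 in PHY. Here too the groups did not overlap, by a narrow margin, and the log2 fold change was -1.05 ± 0.22 (adjusted p = 0.999 by edgeR, 0.0233 by DESeq2). PHY libraries differed little from each other for both genes, and most of the spread was among the controls.

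DUSP1, a phosphatase that switches off MAP kinases, stood at 69.4, 32.8, 13.2, 16.3 and 21.3 CPM in controls and 7.34, 7.92, 9.65 and 5.86 in PHY. ATF3, a stress-induced transcription factor, stood at 12.4, 21.9, 3.68, 2.76 and 3.65 CPM in controls and 1.02, 2.30, 1.58 and 0.977 in PHY. Neither gene's groups overlapped, and controls 1 and 2 were the highest for each. The log2 fold changes were -1.99 ± 0.45 for DUSP1 and -2.57 ± 0.64 for ATF3, with an adjusted p of 0.999 for both by edgeR and of 0.00955 and 0.0233 by DESeq2. FOSB, another AP-1 subunit, had the lowest fold change of the list, -3.72 ± 1.09, but it overlapped: controls were at 32.1, 34.1, 1.84, 0.682 and 11.7 CPM and PHY libraries at 0.663, 2.32, 0.974 and 0.733. Its difference was carried by 3 controls. EGR1, a zinc-finger factor, overlapped as well, at 47.4, 52.5, 36.4, 42.5 and 18.1 CPM in controls and 5.86, 26.3, 14.3 and 4.58 in PHY (-1.61 ± 0.50).

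**Figure D1:**
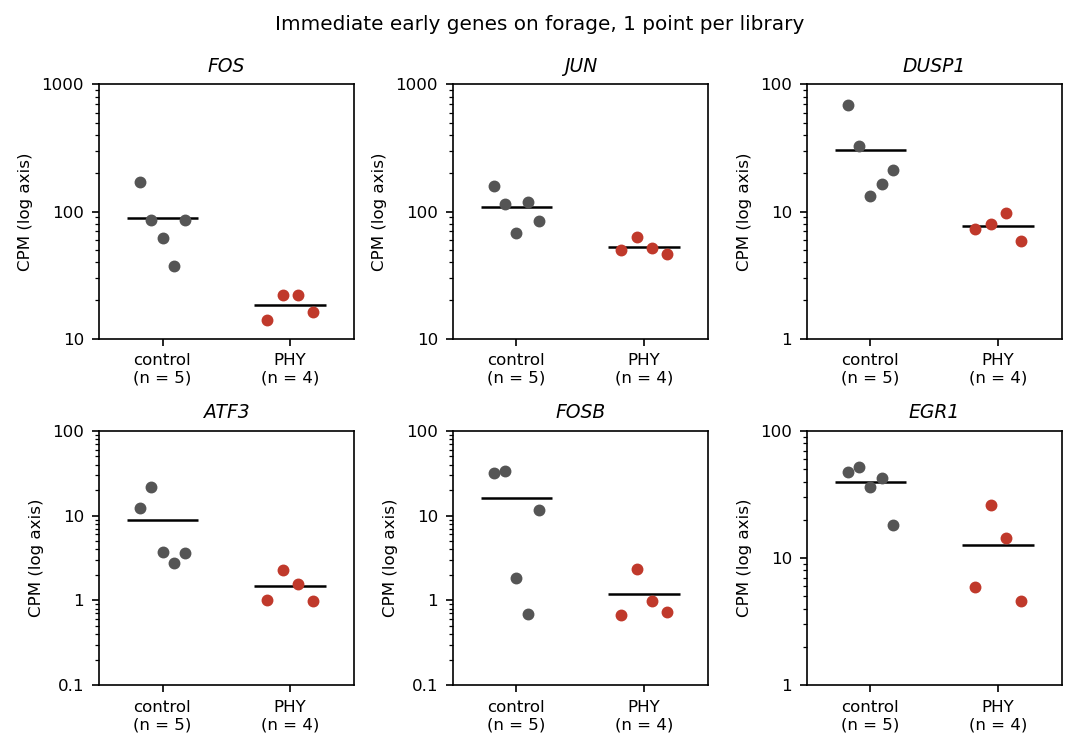
CPM on a log axis of 6 immediate early genes in the 5 control (grey) and 4 PHY (red) forage libraries, 1 point per library, with a bar at each group mean. FOS, JUN, DUSP1 and ATF3 do not overlap between the groups, while FOSB and EGR1 do.

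Over the whole list of immediate early genes, 29 were tested and 26 had a negative log2 fold change, against 58.9% of all genes. The median level of the list was 8.69 CPM, and of genes with a mean log2 CPM from 2 to 4, 51.4% were negative. The list's median was -0.53. At an unadjusted p under 0.05, 9 members were lower in PHY and 0 higher, beside 0.679% and 0.587% of all genes. In 4 members every PHY library lay below every control, beside 0.316% of all genes, and those are the 4 named above. Members of the list respond to the same signals and were read in the same 9 libraries. These counts are therefore not independent observations. The other members under 0.05 were FOSB, EGR1, the mRNA-decay factor ZFP36 (-0.43 ± 0.16), the nuclear receptor NR4A1 (-0.84 ± 0.38) and the matrix-associated CCN1 (-0.73 ± 0.33). JUNB was just outside, at -0.40 ± 0.19 and an unadjusted edgeR p of 0.0534. The remaining members ran from FOSL1 at -1.09 ± 0.66 to FOSL2 at 0.19 ± 0.18. Among them NR4A3 was at -1.03 ± 0.56 and EGR2 at -0.78 ± 0.70, with wide errors, while MYC was at -0.20 ± 0.23, IER3 at -0.05 ± 0.21 and KLF6 at 0.00 ± 0.26. The difference was therefore uneven within the list, and 3 members, FOSL2 among them, had the opposite sign.

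The list's summed level was 672 to 1152 CPM in controls and 560.2 to 663.8 in PHY, with control 1 the highest. Without control 1, FOS stood at a log2 fold change of -1.82 (adjusted p = 0.310 by edgeR) and the list had 6 members under an unadjusted p of 0.05. Without control 4, the control with the lowest FOS, edgeR called FOS (-2.46, adjusted p = 0.0434). Over all alternatives run FOS stayed between -2.46 and -1.82. HBEGF, a growth factor of the EGF family, and ERRFI1, a feedback inhibitor of its receptor, are known to be induced by the same signals and stood at -0.74 ± 0.27 and -0.69 ± 0.27, both overlapping. They were the 2 members of the IGF and EGF list of 28 with an unadjusted p under 0.05, beside 0.679% of all genes lower in PHY. The labels give no time from biopsy to preservation.

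**Figure D2:**
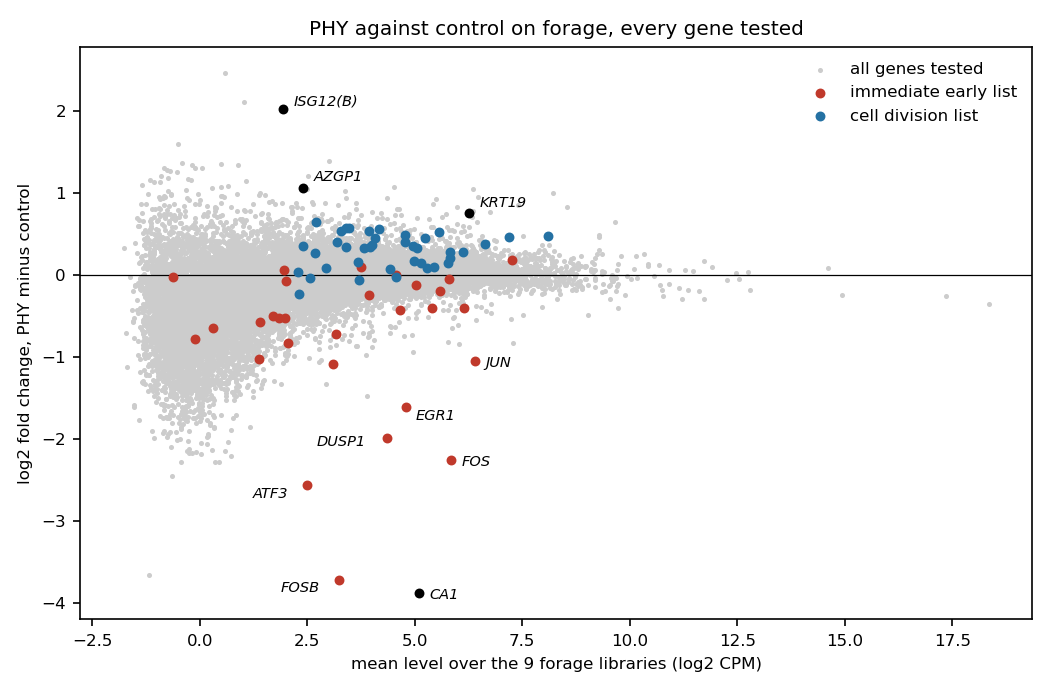
Log2 fold change, PHY minus control, against mean log2 CPM over the 9 forage libraries for all 17389 genes tested (grey), with the immediate early list in red and the cell division list in blue. FOS, DUSP1, ATF3, FOSB and CA1 lie below the cloud of genes of like level, and most cell division genes lie just above 0.

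CA1, a cytosolic carbonic anhydrase that converts carbon dioxide and water to bicarbonate and protons, had the lowest log2 fold change of all named genes, -3.88 ± 0.87. Control libraries stood at 93.9, 6.70, 117, 67.9 and 8.51 CPM and PHY libraries at 3.36, 3.70, 4.41 and 4.58. The controls split into 3 high and 2 low libraries, and the low pair was still above every PHY library. The adjusted p was 0.999 by edgeR and 0.0136 by DESeq2. Of the 15 carbonic anhydrases tested, CA1 was the only one with an unadjusted p under 0.05, beside 0.679% of all genes lower in PHY. The list's median was -0.22.

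Other genes lower in PHY passed no test after adjustment, and those given here moved less than JUN, apart from SCNN1B. CHKA, choline kinase of phosphatidylcholine synthesis, stood at 16.6, 11, 23.8, 16.7 and 10.7 CPM in controls and 9.23, 7.97, 8.67 and 8.73 in PHY, with no overlap (-0.86 ± 0.23). NEU3, a plasma membrane sialidase, was at -0.76 ± 0.24, HAP1 at -0.88 ± 0.25 and the tRNA methyltransferase TRMT1 at -0.61 ± 0.19. Each of these 3 overlapped between the groups. SCNN1B, a subunit of the epithelial sodium channel, stood at 1.05, 3.29, 5.40, 2.08 and 0.766 CPM in controls and 0.663, 0.307, 0.232 and 0.977 in PHY (-2.21 ± 0.68). The highest were controls 2 and 3, which also had the most background reads of the 9 libraries.

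Among genes higher in PHY, SEPTIN5, a cytoskeletal GTPase, had the smallest unadjusted p of the named genes. It stood at 10.0, 6.99, 8.16, 6.58 and 8.08 CPM in controls and 16, 10.2, 12.8 and 12.9 in PHY (0.71 ± 0.18). KRT19, a keratin of simple epithelia and of less differentiated squamous cells, stood at 41.9, 46.1, 83.3, 71.9 and 51.6 CPM in controls and 87.2, 97.5, 115 and 98.6 in PHY (0.76 ± 0.20). Neither gene overlapped. ARRDC3, an arrestin-like adaptor of receptor trafficking, stood at 36.6, 35, 24.7, 42.1 and 36 CPM in controls and 52.8, 51.3, 59.0 and 46.5 in PHY, again with no overlap (0.59 ± 0.16). The adjusted p of all 3 was 0.999 by edgeR. Groups with every PHY library above every control made up 0.236% of all genes. KRT8, the keratin partner found with KRT18 in simple epithelium, overlapped at 0.94 ± 0.36, and KRT18 itself stood at -1.07 ± 0.68. Of the 7 tested markers of simple or glandular epithelium, 4 were positive and 3 negative, with a median log2 fold change of 0.08. The summed level of the 11 list members with counts was 131 to 169.8 CPM in PHY and 81.1 to 124.7 in controls. KRT19 made up most of it, with means of 99.6 CPM in PHY and 59.0 in controls within mean sums of 150 and 104. The median over the 7 tested genes overlapped between the groups.

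AZGP1, a secreted zinc-binding glycoprotein linked to fat breakdown, stood at 4.32, 2.08, 2.70, 5.18 and 3.35 CPM in controls and 5.53, 4.96, 11.6 and 7.63 in PHY. The groups overlapped through PHY 2 and control 4, and the log2 fold change was 1.06 ± 0.31. PI3, the elastase inhibitor elafin, stood at 14.9, 2.08, 5.15, 7.91 and 5.36 CPM in controls and 18.2, 10.5, 20.0 and 8.49 in PHY (1.02 ± 0.44). DUOX2, which makes hydrogen peroxide at epithelial surfaces, was at 176 ± 62.8 CPM in controls and 121 ± 7.30 in PHY (-0.54 ± 0.24). These were the 3 of 26 antimicrobial and mucosal defence genes with an unadjusted p under 0.05, in a list whose median was -0.51. Of all genes, 0.587% were higher and 0.679% lower in PHY at that threshold.

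The cell division list lay on the other side of 0. Of 39 genes tested, 35 had a positive log2 fold change, against 41.1% of all genes, and the median was 0.33. The share of all genes depends on level, and the median level of this list was 18.5 CPM. Of genes with a mean log2 CPM from 4 to 6, 41.7% were below 0, against 74.0% of those from 0 to 2. At an unadjusted p under 0.05, 9 were higher in PHY and 0 lower, beside 0.587% and 0.679% of all genes, and in none did the groups separate. The members were read in the same libraries and are not independent observations. The 9 were the cyclins CCNB2 and CCNA2, their kinase CDK1, the anaphase activator CDC20, the spindle genes AURKA and TPX2, the centromere genes CENPA and CENPF, and the survivin gene BIRC5, with log2 fold changes from 0.45 to 0.64. CCNB2 stood at 4.51, 6.06, 3.68, 4.33 and 7.29 CPM in controls and 6.63, 8.12, 9.78 and 8.0 in PHY (0.64 ± 0.23). MKI67, the proliferation marker, stood at 201, 291, 148, 183 and 348 CPM in controls and 343, 274, 431 and 257 in PHY (0.48 ± 0.25). For both, control 5 lay within the PHY range and PHY 3 was the highest library. INCENP, a chromosomal passenger protein, was at 0.59 ± 0.19.

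The count of 9 rested on single libraries. It was 0 without PHY 3, 5 without PHY 1 or control 1, 6 without control 3 or control 4, 15 without PHY 4, 16 without control 2 and 20 without control 5, and 17 with voom. The summed level of the list was 964 to 1620 CPM in controls and 1294 to 1906 in PHY. PHY 3, the library highest in cell division, was also the lowest of the 9 in stromal markers, and its part in the count is the drop to 0 without it.

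**Figure D3:**
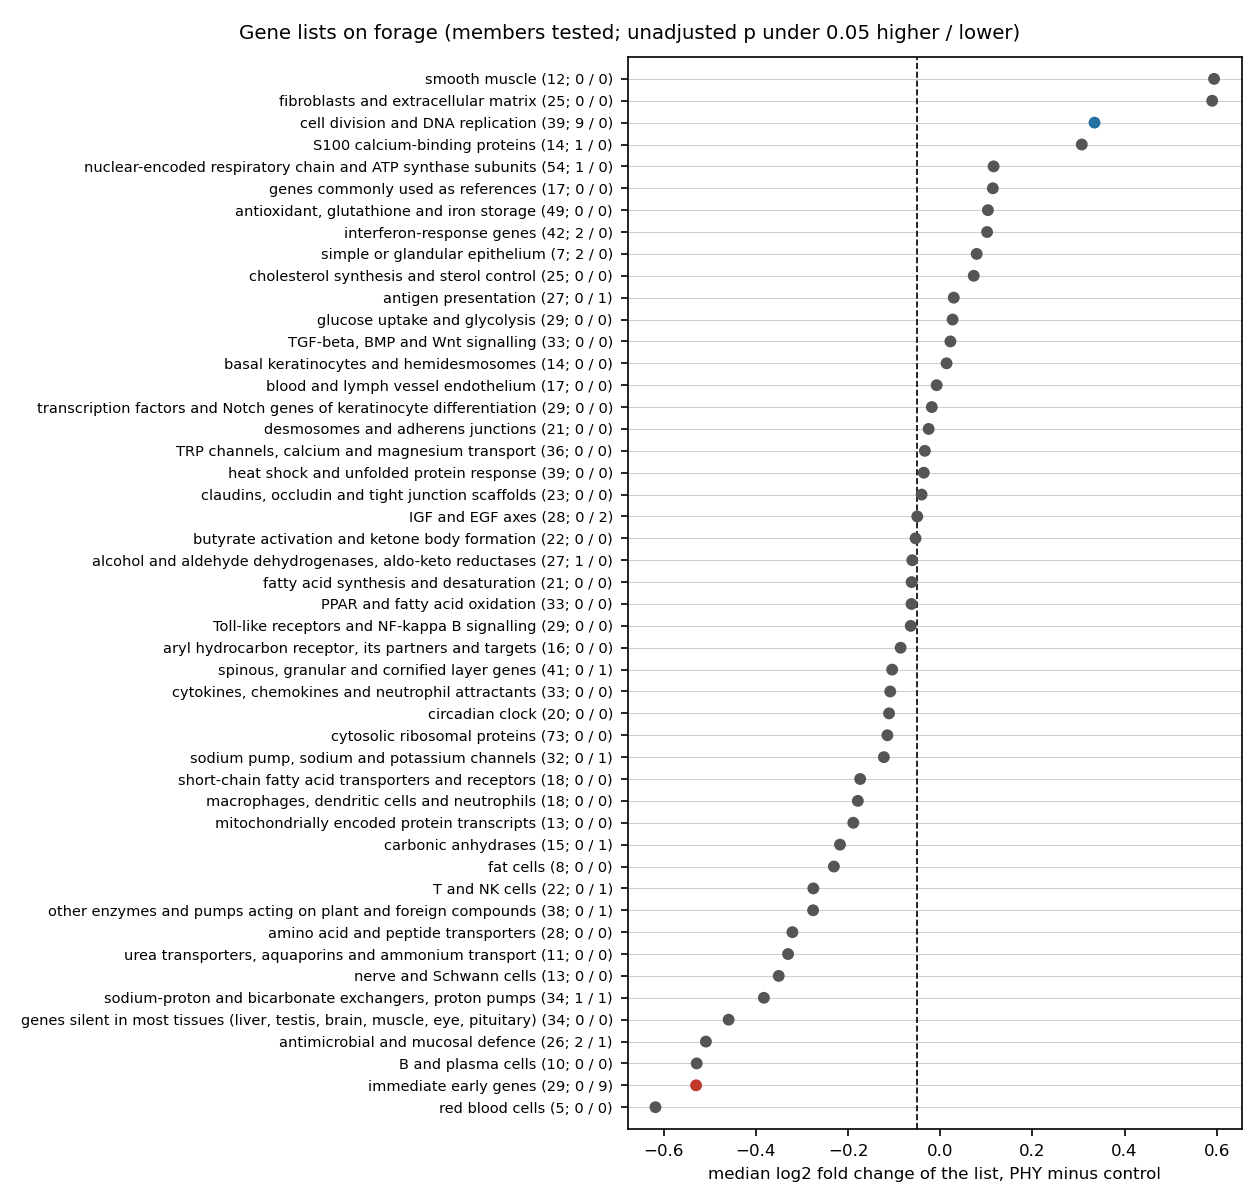
Median log2 fold change, PHY minus control, of each of the 48 gene lists on forage, with the number of members tested and the numbers with an unadjusted p under 0.05 that were higher and lower in PHY in brackets. The dashed line is the median of all genes tested, and the immediate early (red) and cell division (blue) lists hold the most members under 0.05, 9 each.

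Connective tissue and muscle markers had the highest list medians without any member passing. Of 25 fibroblast and extracellular matrix genes, 24 were positive with a median of 0.59, and of 12 smooth muscle genes all 12 were positive with a median of 0.59. In both lists 0 members had an unadjusted edgeR p under 0.05. COL6A2, a collagen VI chain, stood at 62.2, 53.3, 46.1, 17.5 and 135 CPM in controls and 163, 194, 16.3 and 112 in PHY (0.95 ± 0.66). TAGLN, a smooth muscle actin-binding protein, stood at 16.2, 13, 10.5, 4.98 and 29.3 CPM in controls and 41.6, 30.7, 5.47 and 18.2 in PHY (0.70 ± 0.57). The libraries went together across both lists: PHY 1, PHY 2 and control 5 were high and PHY 3 and control 4 low. The summed stromal level ranged from 834 to 3466 CPM in controls and from 608 to 3620 CPM in PHY. In bulk tissue, fewer cells of a type and less RNA per cell cannot be told apart.

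FOS stood at 21.9 CPM in PHY 2, the library highest in stroma, and at 22 in PHY 3, the lowest. Among controls it stood at 36.9 in control 4, the lowest in stroma and in FOS, and at 85.2 in control 5, the highest in stroma. With the stromal list score as a covariate, chosen after seeing the data, FOS was at -2.28, CA1 at -3.66 and JUN at -1.04, and the cell division count was again 9. Apart from the markers of simple or glandular epithelium given above, the summed markers of the other cell types overlapped between the groups. Summed T and NK cell markers were at 40.5 to 77.2 CPM in controls and 43.5 to 56.2 in PHY, myeloid markers at 47.5 to 70.1 and 47.3 to 66.6, B and plasma cell markers at 7.05 to 27.6 and 9.91 to 15, red cell markers at 2.08 to 14 and 2.32 to 7.37, endothelial markers at 203.8 to 419 and 256 to 354, nerve and Schwann cell markers at 71.9 to 93.7 and 76.5 to 86.1, and fat cell markers at 139 to 343 and 177 to 262. In each of these lists the PHY range lay within the control range or reached below it by less than 1 CPM. At the level of single genes, KLRB1, a receptor of NK and some T cells, stood at 0.679, 2.89, 2.88, 0.512 and 0.370 CPM in controls and 0.637, 0.511, 0.278 and 0.366 in PHY, carried by controls 2 and 3.

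**Figure D4:**
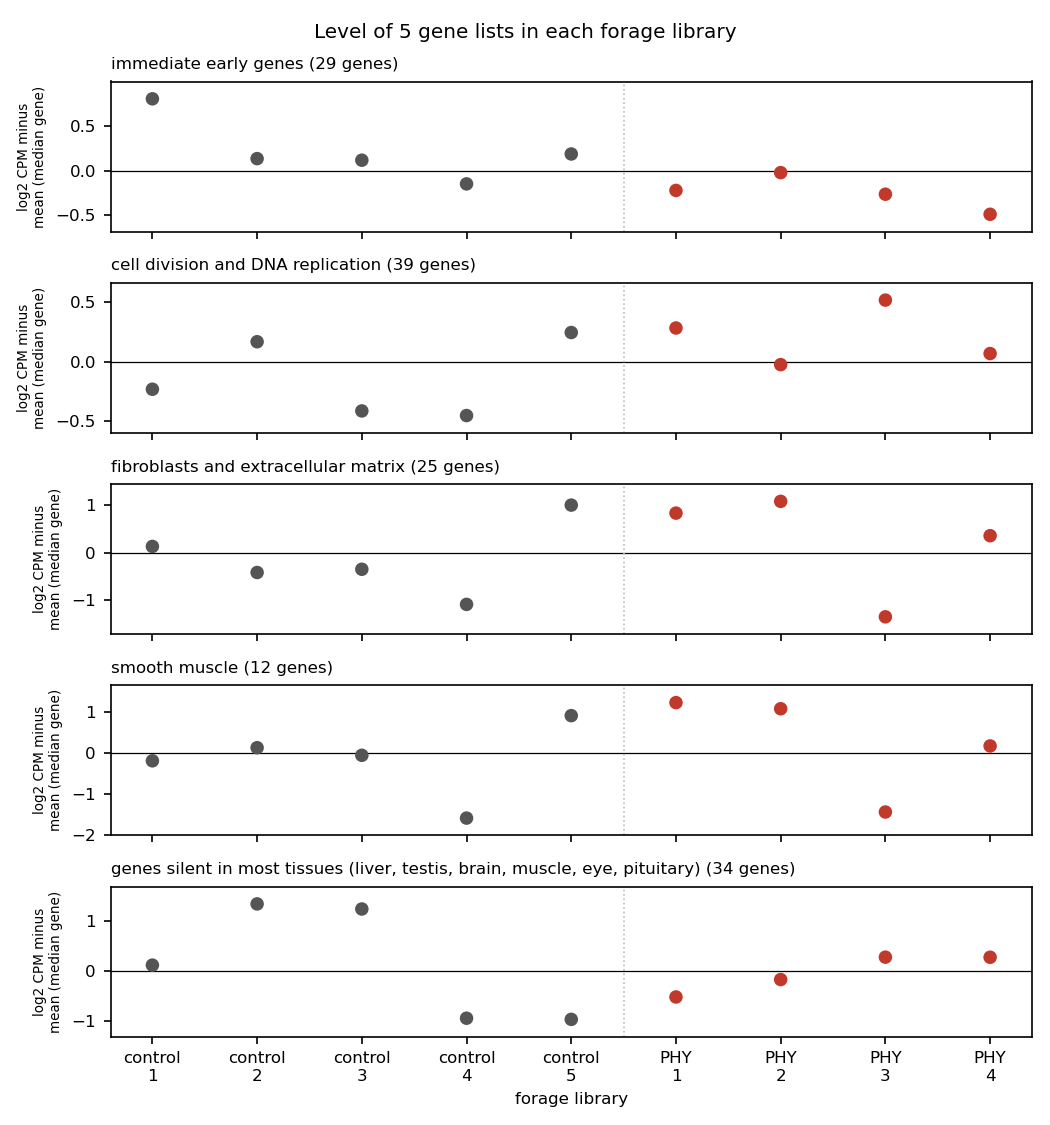
Level of 5 gene lists in each forage library, as the median over genes of log2 CPM minus the gene's mean over the 9 libraries, with controls in grey and PHY in red. Stromal and smooth muscle markers are high in control 5, PHY 1 and PHY 2 and low in control 4 and PHY 3, and the genes silent in most tissues are high in controls 2 and 3.

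Controls 2 and 3 stood apart from the other libraries. They had the most reads on the 144 olfactory receptor genes, a family silent outside a few tissues, at 65.0 and 48.7 CPM, against 28.5, 18.2 and 16.3 in the other controls and 20.8, 20.9, 32.2 and 22.7 in PHY. Their scores on the first principal component, which held 54.1% of the variance, were -95.0 and -98.3, against 78.5 and 88.0 for controls 4 and 5, and the PHY libraries lay between, from -19.9 to 38.2. Weakly expressed genes had lower fold changes than the rest, and a link of these to the background was not tested. Genes under a mean log2 CPM of 0 had a median log2 fold change of -0.46, those from 0 to 2 a median of -0.28, and those over 6 a median of 0.02. The genes silent in most tissues had a median log2 fold change of -0.46 at a median level of 1.37 CPM. The lists of antimicrobial defence (-0.51), B and plasma cells (-0.53) and red cells (-0.62) had median levels of 1.47, 1.03 and 1.02 CPM, and the part of the background in their fold changes was not tested. The exchangers and proton pumps (-0.38) had a median level of 5.46 CPM. These list medians were not stable over the 11 alternatives other than leaving out 1 library. They ran from -0.55 to -0.02 for antimicrobial defence, -0.57 to 0.36 for B and plasma cells and -0.84 to 0.34 for red cells. The silent genes ran from -0.55 to 0.41 and the exchangers and proton pumps from -0.39 to 0.06. With controls 2 and 3 both left out, chosen after seeing the data, the median over all genes was 0.01, FOS was at -2.41, JUN at -1.19, DUSP1 at -2.20, ATF3 at -2.05, CA1 at -3.83 and AZGP1 at 0.79.

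Among genes of the absorptive and metabolic work of the papilla, BDH1 and SLC16A1 differed little and some ion transporters more, with wider errors. BDH1, which makes beta-hydroxybutyrate, was at 281 ± 70.3 CPM (n = 5) in controls and 308 ± 58.6 (n = 4) in PHY (0.13 ± 0.20). SLC16A1, the monocarboxylate transporter MCT1, was at 792 ± 151 and 755 ± 60.2 CPM (-0.07 ± 0.17). None of the 22 genes of butyrate activation and ketogenesis had an unadjusted edgeR p under 0.05, and their median was -0.05, the median of all genes. Of 18 short-chain fatty acid transporters and receptors 0 did so too, with a median of -0.17 and a wide median SE of 0.63. SLC9A3, the sodium-proton exchanger NHE3, stood at 7.47, 19.1, 13.2, 78.8 and 18.8 CPM in controls and 13.9, 13.3, 16.6 and 27.7 in PHY (-0.64 ± 0.61), and its lower mean in PHY came from control 4 alone. SLC26A3, a chloride-bicarbonate exchanger, was at -0.53 ± 0.54. SLC26A2, a sulfate transporter, stood at 65.0, 54.3, 78.0, 117 and 93.6 CPM in controls and 16.1, 48.4, 46.7 and 71.4 in PHY (-0.84 ± 0.35).

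Junction and basal layer genes had list medians near 0. CLDN1, CLDN4 and OCLN of the tight junction were at 0.35 ± 0.28, -0.09 ± 0.23 and -0.07 ± 0.20. Of 23 tight junction genes, 21 desmosome and adherens junction genes and 14 basal layer genes, 0 had an unadjusted edgeR p under 0.05, with medians of -0.04, -0.03 and 0.01. Of 41 genes of the upper layers 1 did, KRT23, beside 0.679% of all genes lower in PHY. KRT23 stood at 3.15 ± 1.21 CPM in controls and 1.64 ± 0.628 in PHY (-0.95 ± 0.40). S100A2, a calcium-binding protein of basal keratinocytes, stood at 247, 256, 220.0, 239 and 268 CPM in controls and 309, 322, 353 and 281 in PHY with no overlap (0.36 ± 0.14). It was the 1 member of the 14 tested S100 genes under 0.05, beside 0.587% of all genes higher in PHY. The list had 12 positive members and a median of 0.31.

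Mitochondrial genes had small differences. All 13 protein transcripts of the mitochondrial genome had a negative log2 fold change, from -0.49 for ND6 to -0.06 for ND5, with a median of -0.19, against 58.9% of all genes below 0, and none had an unadjusted edgeR p under 0.05. These transcripts share 1 genome and are not independent. Of the 54 nuclear genes of the respiratory chain and ATP synthase, 48 were positive, against 41.1% of all genes, with a median of 0.12. UQCR11 (0.36 ± 0.16) was the 1 member under 0.05, beside 0.587% of all genes higher in PHY. Without controls 2 and 3 the median of these nuclear genes had the other sign, -0.098. The difference between the mitochondrial and the nuclear genes was not tested. Their median levels were 2338 and 56.5 CPM, and the share of genes below 0 depends on level. It was 43.1% of genes with a mean log2 CPM over 6 and 41.7% of those from 4 to 6. Of 17 reference genes, 12 were positive, with a median of 0.11. Ribosomal protein genes had a median of -0.11, with 69 of 73 negative and 0 with an unadjusted edgeR p under 0.05, and the median ran from -0.22 to 0.034 when 1 library was left out.

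Immune and foreign-compound genes showed few differences. Of 42 interferon-response genes, 2 were under an unadjusted edgeR p of 0.05, both higher in PHY, beside 0.587% of all genes. IRF9, a subunit of the interferon-activated factor ISGF3, had PHY libraries at 6.78, 7.15, 8.49 and 10.2 CPM and controls from 4.91 to 6.55 (0.45 ± 0.19). The other was PARP14, a mono-ADP-ribosyltransferase (0.35 ± 0.15). ISG12(B), an interferon-induced gene, was high in 2 of 4 PHY libraries, at 13.6 and 9.02 CPM in PHY 1 and PHY 2, while PHY 3 and PHY 4 were at 1.39 and 2.26, within the control range of 0.555 to 2.90. None of 33 cytokine and chemokine genes and none of 29 Toll-like receptor and NF-kappa B genes was under 0.05. IL1B was at 0.14 ± 0.56, TLR4 at 0.40 ± 0.32 and NFKBIA, the inhibitor of NF-kappa B, at 0.36 ± 0.17. The aryl hydrocarbon receptor senses plant and microbial ring compounds, and its target CYP1A1 stood at 19.7, 79.1, 40.8, 131 and 64.4 CPM in controls and 30.7, 18.7, 12.8 and 91.2 in PHY (-0.81 ± 0.64). CYP1B1 was at -0.48 ± 0.36 and NQO1 at 0.28 ± 0.25, and none of the 16 genes of that list was under 0.05. FMO5, a flavin monooxygenase, was at -0.74 ± 0.26 and the aldehyde dehydrogenase ALDH3A2 at 0.36 ± 0.16.

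The same cows' grain biopsies give a second reading of each arm, from a fit of all 18 libraries. FOS on grain stood at 40.3, 72.5, 15.6, 41.7 and 263 CPM in controls and 59.4, 74.0, 24.6 and 56.0 in PHY, so the groups overlapped and the log2 fold change was -0.70 ± 0.62. JUN was at -0.71 ± 0.40, DUSP1 at -0.66 ± 0.51 and ATF3 at -0.74 ± 0.89 on grain. The immediate early list had a median of -0.31 on grain with 0 members under 0.05, and the cell division list a median of 0.05 with 0 under 0.05. The difference of the PHY effect between diets was not past the threshold for any gene: edgeR called 0 of 22202 genes, with a smallest adjusted p of 0.954, and had 442 (1.99%) under an unadjusted 0.05. DESeq2 on the same difference called 0 as well and had 728 under an unadjusted 0.05. For FOS the difference, forage minus grain, was -1.50 in the edgeR fit of all 18 libraries (adjusted p = 0.954).

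CA1 on grain stood at 62.5, 7.69, 123, 46.8 and 8.09 CPM in controls and 0.542, 3.15, 6.31 and 8.55 in PHY. It again had 3 high and 2 low control libraries, and here the low pair overlapped with PHY (-3.39 ± 1.04). AZGP1 on grain stood at 6.53, 3.17, 4.18, 4.69 and 3.18 CPM in controls and 8.23, 8.07, 13.5 and 12.5 in PHY with no overlap (1.30 ± 0.32). SLC26A2 on grain was at -1.04 ± 0.42. SEPTIN5, higher in PHY on forage, overlapped on grain (0.56 ± 0.26). ISG12(B) on grain was again high in 2 PHY libraries, at 14 and 7.42 CPM, and at 2.89 and 2.26 in the others. No gene was called in PHY against control on grain either, where 178 genes were higher (0.802%) and 393 lower (1.77%) at an unadjusted edgeR p under 0.05. Because the cows are the same, forage and grain are 2 readings of 9 cows and not 2 independent groups, and no label ties a forage library to its grain library.

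**Figure D5:**
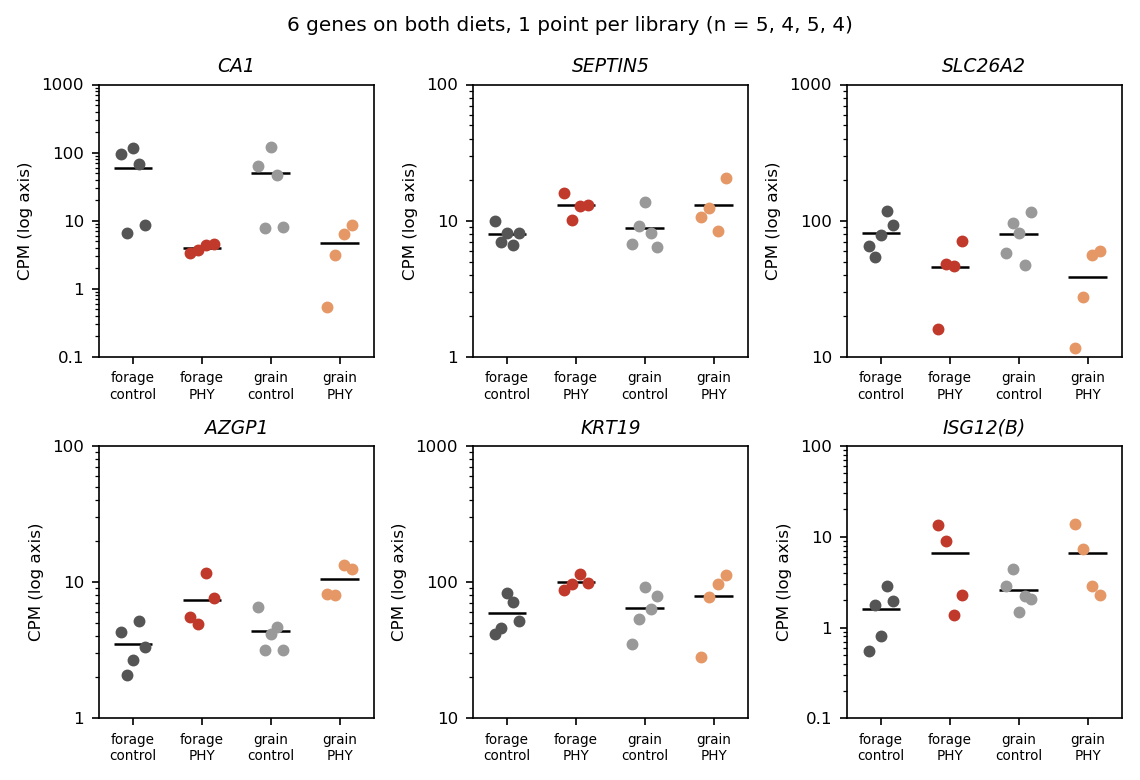
CPM on a log axis of 6 genes in forage and grain libraries of control and PHY cows, 1 point per library (n = 5, 4, 5 and 4), with bars at the group means. CA1 has 3 high and 2 low control libraries on both diets, AZGP1 separates the arms on grain but not on forage, and ISG12(B) is high in 2 PHY libraries on each diet.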

How the data were processed

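RNA-seq libraries were made from 10 ng of total RNA with a stranded total RNA kit, per the labels' protocols. The authors deposited whole-number read counts for 27270 genes, of which 7506 carry only an identifier and 511 had 0 reads on forage. The build was bosTau9, and bcl2fastq 2.20 and DESeq2 are listed, per the submitters' processing notes. Which aligner, counter and strand setting were used is not given in the sources used here, so overlapping, antisense and near-identical genes may share reads.

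Counts of the 9 forage libraries were tested with edgeR 4.0.16 (R 4.3.3): filterByExpr by group, TMM, robust quasi-likelihood F test and Benjamini-Hochberg adjustment over all genes tested, called under 0.05. Each of these libraries is another cow, so the grain libraries stayed out, and the difference between diets used all 18 libraries. Replicate numbers follow the order of deposit. CPM of genes uses effective library sizes, and CPM of olfactory receptor genes and the silent panel uses total reads. Log2 CPM had a prior count of 2. Alternatives used DESeq2 1.42.0, limma 3.58.1, sva 3.50.0, other filters and scalings, and leaving out each library.

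Named genes were, in each direction, the 10 with the smallest p among genes with a symbol and at least 5 CPM in the higher group, the 2 smallest p of each of 48 lists, and 24 preset genes. Further members of the immediate early and cell division lists, KRT18, DUOX2 and the gene with no symbol, were named after their values were seen, as were some marker genes. Not all are printed, and some are not reported here. The members and lists were chosen with earlier results of these data known. The scripts were tested on simulated data with less variation between libraries than here, which does not measure the power of this comparison.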

Additional observations from a re-analysis of the deposited data

Results flagged for a closer look

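Of 142 groups of 4 or 5 library values of the genes and measures above, 5 held 1 value far from the rest by Dixon's test. Chance alone gives this in about 1 of 20 groups, so the number is no more than chance gives. BOLA-DQB, a class II antigen-presenting chain with different alleles between cows, stood at 7.05 CPM in control 5 against 1.23 in the next control. SLC9A3 stood at 78.8 CPM in control 4 against 19.1 in the next. In PHY 2, SAPCD2 was low at 10.4 CPM against 13.8 in the nearest PHY library, and NFKBIA high at 33.3 CPM against 28.2. Olfactory receptor genes together stood at 32.2 CPM in PHY 3 against 22.7 in the nearest PHY library.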

How the results depend on the processing

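The direction of the 64 genes checked held in 1265 of 1276 pairs of gene and alternative setting. Most of these genes were named for a small p in the same libraries, which the settings reuse. Their direction was therefore likely to hold, and the count is no independent check. Genes with an opposite sign were all preset ones. The opposite signs came from 5 genes, 4 of them near 0 and SLC9A3 at -0.64: with voom SLC9A3 was at 0.13 and OCLN at 0.090; thinned to the lowest total IL1B was at -0.054. Leaving out 1 library, SLC16A1 ran from -0.14 to 0.054, SLC9A3 from -0.89 to 0.30, CLDN4 from -0.20 to 0.17, OCLN from -0.14 to 0.15 and IL1B from -0.091 to 0.39. Ratios of PHY to control over the same settings ran from 0.987 to 1.22 for total reads, 0.989 to 1.02 for genes detected, 0.838 to 1.03 for the silent panel and 0.904 to 1.15 for ribosomal protein reads.

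DESeq2 called 6 genes lower, and leaving out 1 library 0 to 1. Genes higher in PHY at an unadjusted p under 0.05 numbered 240 with no filter, 353 with voom, 340 with the olfactory receptor covariate, 409 with 1 surrogate variable, 446 without controls 2 and 3, and 79 to 462 leaving out 1 library. Lower genes numbered 350 with no filter, 201 with DESeq2, 186 with voom, 231 with all 18 libraries, 196 with 1 surrogate variable, 233 without controls 2 and 3, and 66 to 372 leaving out 1 library. The cell division count was 17 with voom and 0 to 20 leaving out 1 library; the immediate early count stayed at 6 to 11. For the difference between diets the numbers were 787 with no filter, 728 with DESeq2 and 230 to 1111 leaving out 1 library. The cause of these shifts was not tested. No paired analysis was possible because the labels carry no shared replicate numbers and tie no library to a cow. The fit of all 18 libraries therefore took the forage and grain libraries of a cow as independent. With 4 and 5 cows and a median SE of 0.27, small differences were not detectable. Large ones were not called by edgeR either, such as FOS at -2.26 (adjusted p = 0.859) and CA1 at -3.88 (adjusted p = 0.999).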

Other observations

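Genes with the smallest p for the difference of the PHY effect between diets, none of them called (smallest adjusted p 0.954 by edgeR), are given here as log2 fold change, PHY minus control. ERI3, a 3-prime exonuclease family member, was at 0.08 ± 0.16 on forage and -0.91 ± 0.24 on grain, and TWSG1, a modulator of BMP signalling, at 0.18 ± 0.22 and -0.89 ± 0.27. MIS18A, which helps load CENPA at centromeres, was at 0.67 ± 0.27 on forage and -0.65 ± 0.33 on grain. AGBL5, a tubulin deglutamylase, stood at 6.54, 8.31, 9.26, 6.69 and 6.42 CPM in forage controls and 4.89, 5.90, 5.52 and 6.10 in forage PHY, with no overlap. On grain it stood at 8.34, 6.95, 6.88, 8.21 and 5.14 CPM in controls and 10.2, 10.2, 8.54 and 10.4 in PHY, again with no overlap and in the other direction. IFT172 of ciliary transport was at -0.39 ± 0.26 on forage and 0.69 ± 0.26 on grain.

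BOLA-DQB was lower in PHY on both diets, at -2.28 ± 0.82 on forage and -2.10 ± 0.94 on grain. On each diet the control mean came mostly from 1 library: on grain that control stood at 9.95 CPM and the other controls at 0.401 to 1.61.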
